A study of Mus musculus with 24 samples.

Results

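The genes described here were 9 marker and regulator genes of endothelial and blood cells, lineages that neighbour the supporting cells of the gonad without belonging to them. They were given as a list of symbols, and all 9 were found among the 22367 protein-coding genes of the GENCODE M1 annotation of mm9 (NCBIM37). The 6 endothelial genes were *Pecam1*, *Cdh5*, *Tek*, *Tie1*, *Kdr* and *Emcn*, and the 3 blood genes were *Tal1*, *Spi1* and *Ptprc*. *Spi1* carries its older name *Sfpi1* in that annotation. The study used ChIP-seq for H3, H3K4me3 and H3K27me3 on supporting cells sorted from mouse embryonic gonads, with 2 replicates per antibody and population and 24 samples in all. Progenitor cells were sorted at E10.5 from XY and XX gonads by the SF1-eGFP reporter. At E13.5, Sertoli cells were sorted from XY gonads by Sox9-CFP and pregranulosa cells from XX gonads by TESM-CFP (TESMS-CFP in the paper). All mice were of a mixed C57BL/6 and CD1 background, gonads were pooled, and populations were defined by reporter, sex and stage.

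Endothelial cells line blood vessels, and in the XY gonad their migration from the neighbouring mesonephros accompanies the formation of testis cords. Blood cells, macrophages among them, reach the gonad through these vessels. H3K4me3 is deposited at promoters that are active or poised, H3K27me3 is deposited by Polycomb repressive complex 2 at silenced genes, and promoters that carry both marks are called bivalent.

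The processed data were 8 lists of enriched regions, 1 per mark and population, made from both replicates together. The spread of replicates is therefore unknown, no difference between populations was tested, and every interval given covers counting error only. The lists give the position of a mark and not its level, because the score column holds the same value throughout the 6 lists that have one. H3K4me3 lists were made from 10162534 tags in XY progenitors, 49254553 in XX progenitors and 31104760 in Sertoli cells. H3K27me3 lists were made from 6470151, 33185400 and 44446456 tags in the same order, and the depth of the pregranulosa lists is unknown. A promoter was the window of 4001 bp centred on the transcription start site (TSS), which is the 5′ end of the gene record. An overlap of 1 bp or more with a region counted as marked.

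*Kdr* and *Tal1* were bivalent in all 4 populations, and none of the other 7 genes was bivalent in any of them. H3K4me3 marked 2 of the 9 promoters in XY progenitors (22.2%, 2.81–60.0, 95% exact Clopper-Pearson interval), 3 in XX progenitors (33.3%, 7.49–70.1), 2 in Sertoli cells and 3 in pregranulosa cells. Over the 22339 distinct promoter windows of protein-coding genes, H3K4me3 marked 64.2% in XY progenitors, 66.0% in XX progenitors, 64.9% in Sertoli cells and 66.3% in pregranulosa cells. H3K4me3 was therefore counted at a smaller share of the 9 promoters than of all promoters, a difference that was not tested. H3K27me3 marked 2, 3, 3 and 2 of the 9 promoters in the same order, beside 23.0%, 24.8%, 23.5% and 23.6% of all promoters. Bivalent promoters were 2 of 9 in each population, beside 20.4%, 22.4%, 18.7% and 20.4% of all promoters. The H3K4me3 share of all promoters lay above the interval of the 9 genes in XY progenitors and Sertoli cells (2.81–60.0 in both) and inside it in XX progenitors and pregranulosa cells (7.49–70.1 in both). Over all genes of the annotation, the share was 46.8% in XY progenitors and 47.8% in Sertoli cells, inside the interval. The shares of H3K27me3 and of bivalency over all promoters lay inside the intervals of the 9 genes in every population.

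Promoters with neither mark numbered 7 of 9 in XY progenitors, 5 in XX progenitors, 6 in Sertoli cells and 6 in pregranulosa cells, where 33.1%, 31.6%, 30.3% and 30.4% of all promoters had neither. The share of all promoters lay below the interval of the 9 genes in XY progenitors (40.0–97.2) and inside it in the other populations. Over all genes of the annotation, it was 50.3% in XY progenitors, inside the interval. *Pecam1*, *Tek*, *Tie1* and *Ptprc* had neither mark in any population. *Cdh5*, *Emcn* and *Spi1* changed class between populations, each through a region of 1 mark. Over all promoters, 26.2% (25.6–26.8) had neither mark in all 4 populations and 13.6% (13.2–14.1) were bivalent in all 4.

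**Figure D1:**
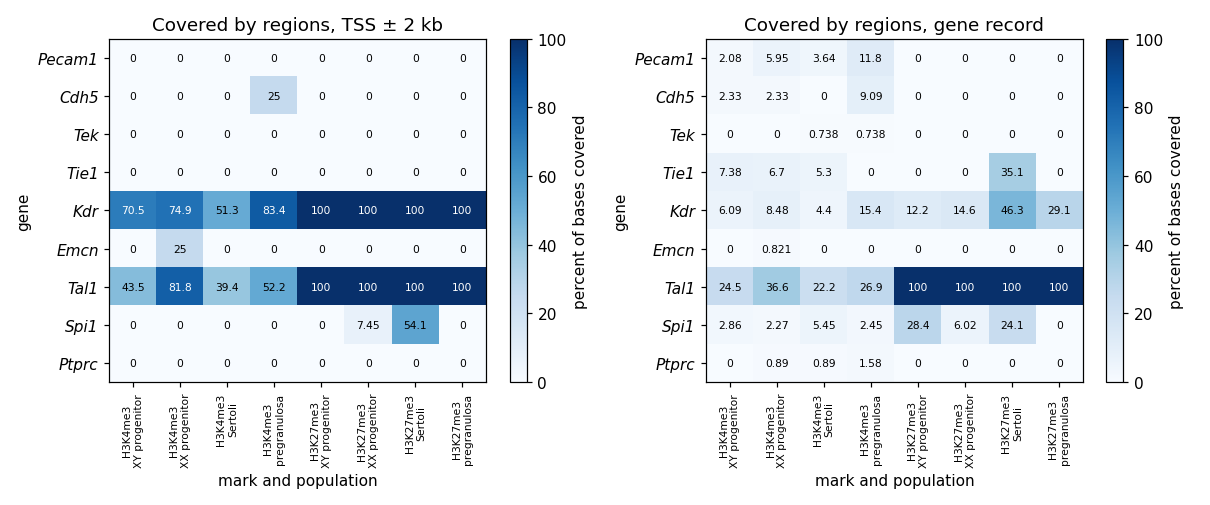
Percent of the bases of the promoter window (left) and of the gene record (right) covered by regions of each list, for the 9 genes (y axis) in the 8 lists (x axis), with the value printed in each cell. *Kdr* and *Tal1* are covered by H3K27me3 over 100% of the promoter window in every population, and the promoter windows of 4 genes are at 0 in all 8 lists.

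*Kdr* encodes the main VEGF receptor of endothelial cells and is among the first genes switched on in their precursors. The gene (ENSMUSG00000062960.6) lies on the minus strand of chromosome 5 from 76328852 to 76374483. H3K4me3 covered 70.5% of its promoter window in XY progenitors, 74.9% in XX progenitors, 51.3% in Sertoli cells and 83.4% in pregranulosa cells. In this window the share was lower in Sertoli cells than in XY progenitors and higher in pregranulosa cells than in XX progenitors, but within 1 kb of the TSS it was 91.0% in XY progenitors and 100% in the other populations. H3K27me3 covered 100% of the window in all 4 populations. The H3K27me3 region over the TSS was 11889 bp wide in XY progenitors, 12797 bp in XX progenitors, 31839 bp in Sertoli cells and 13251 bp in pregranulosa cells.

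Of the lists joined here, the H3K27me3 domain of *Kdr* was widest in Sertoli cells, where it ran from 76354043 to 76385881. The pregranulosa H3K27me3 list held 12609 peaks of which none overlapped another, with a median of 8910 bp, whereas the peaks of the other H3K27me3 lists had a median of 5001 bp and were joined here. Its caller settings are unknown, so widths and gaps in pregranulosa cells may not compare with the others. Along the whole gene of 45632 bp, H3K27me3 covered 12.2%, 14.6%, 46.3% and 29.1% in the 4 populations, with the higher shares at E13.5. With all lists limited by width to the same length, the pregranulosa share was 18.1%. Pregranulosa cells had a separate region of 5001 bp from 76358974 to 76363974, inside the span that the Sertoli domain covered without a break. H3K4me3 was also called within the gene near 15.3 kb from the TSS in XX progenitor, Sertoli and pregranulosa cells. That site fell in an intron in XX progenitor and Sertoli cells, and the wider pregranulosa region of 2470 bp reached a coding exon.

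*Tal1* encodes a basic helix-loop-helix factor required for the formation of all blood cells and used in early endothelial precursors. The gene (ENSMUSG00000028717.6) lies on the plus strand of chromosome 4 from 114729031 to 114744360. H3K27me3 covered 100% of both the promoter window and the 15330 bp of the gene in all 4 populations. The domain was 28850 bp wide in XY progenitors, 25997 bp in XX progenitors, 30772 bp in Sertoli cells and 26595 bp in pregranulosa cells. These widths differed less than those at *Kdr*, and the gene lay inside the domain in every list.

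H3K4me3 covered 43.5% of the *Tal1* promoter window in XY progenitors, 81.8% in XX progenitors, 39.4% in Sertoli cells and 52.2% in pregranulosa cells. XX progenitors had the widest region, and their list had the most tags of those with a stated depth. In Sertoli cells the region began 11 bp downstream of the TSS, so that with the TSS base itself required the gene lost H3K4me3 there and 1 of the 9 promoters stayed bivalent. Of the 4 annotated starts of *Tal1*, those at 114730043 and 114730416 lay inside an H3K4me3 region in all 4 populations.

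H3K4me3 at *Tal1* formed 3 sites shared by all 4 populations inside the H3K27me3 domain. Their middles lay at -3.38, 1.06 and 6.82 kb from the TSS, and the last overlapped a coding exon. A further H3K27me3 domain of 20150, 18169, 18905 and 18368 bp followed downstream of the gene and held the start of *Pdzk1ip1*. The lists come from many cells, so both marks on the same chromosomes and each mark in different cells cannot be told apart.

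*Spi1* encodes PU.1, an ETS factor of myeloid and B cells. The gene (ENSMUSG00000002111.8) lies on the plus strand of chromosome 2 from 90922547 to 90955913, and its 4 annotated starts fall into a pair at the 5′ end of the record and a pair near 90936253 and 90936937. H3K27me3 covered 0 bp of the window at the 5′ end in XY progenitors, 298 bp in XX progenitors, 2164 bp in Sertoli cells and 0 bp in pregranulosa cells. In the window at 90936937, H3K27me3 covered 4001 bp in Sertoli cells and 0 bp in the other populations. H3K27me3 at the annotated starts was thus most extensive in Sertoli cells and was not called at any of them in XY progenitors or pregranulosa cells.

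The overlap of 298 bp in XX progenitors came from a region of 5001 bp, the smallest width of an H3K27me3 call, centred at -4.20 kb from the TSS. XY progenitors had a region of the same width whose edge lay 2230 bp from the TSS, outside the window. H3K4me3 was called in all 4 populations at -3.69 kb from the TSS, where H3K27me3 regions of every population but pregranulosa cells overlapped it. Within the gene, H3K27me3 covered 28.4% in XY progenitors, 6.02% in XX progenitors, 24.1% in Sertoli cells and 0% in pregranulosa cells. In XY progenitors the covered bases lay toward the 3′ end, in regions centred 26.7 kb and 35.3 kb from the TSS, and the farther one held the start of *Mybpc3*, the next gene.

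**Figure D2:**
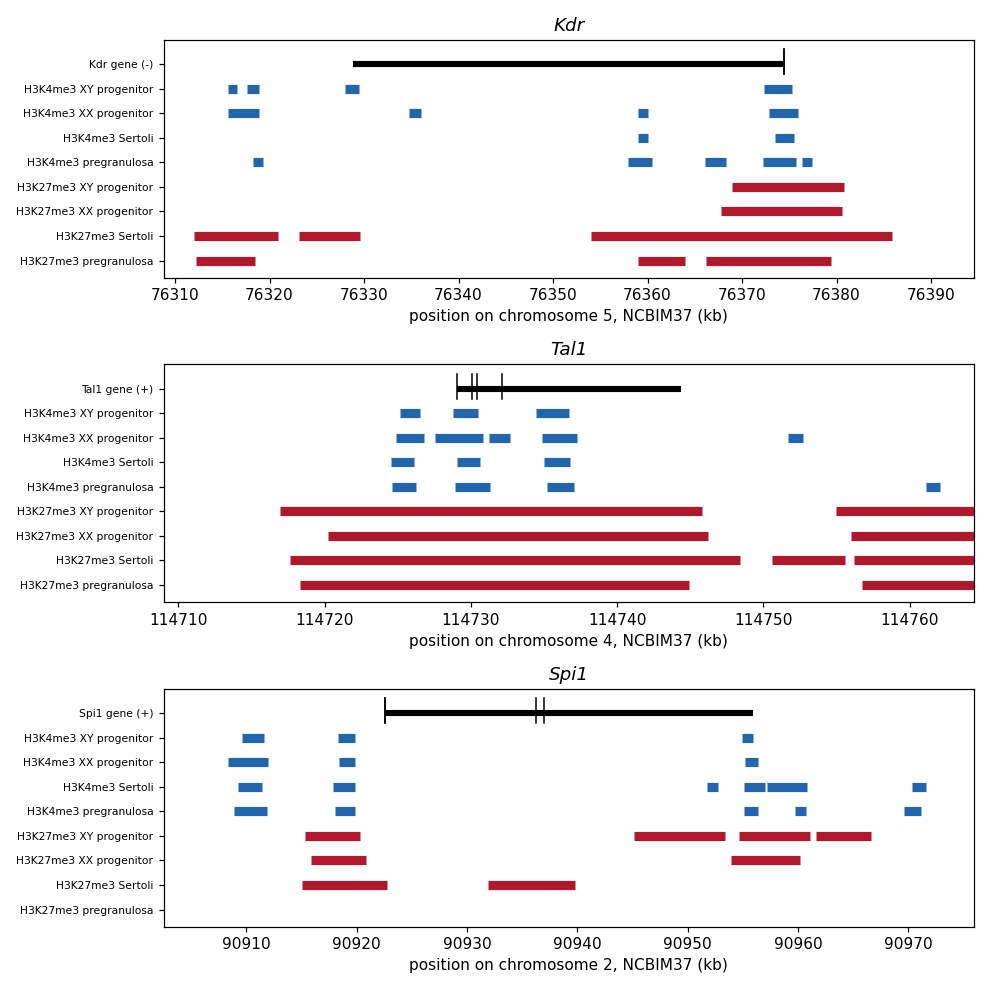
Regions of the 8 lists at *Kdr*, *Tal1* and *Spi1* with 20 kb on each side, H3K4me3 in blue and H3K27me3 in red, against position in kb on mm9 (black bar, gene record, with its strand in parentheses; ticks, annotated starts). The H3K27me3 region over the *Kdr* TSS is 31839 bp wide in Sertoli cells, and *Spi1* has no H3K27me3 region in pregranulosa cells.

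*Pecam1* encodes an adhesion molecule of endothelial junctions, platelets and leukocytes, and is also detected on germ cells. Its record (ENSMUSG00000020717.11) spans 96412 bp on the minus strand of chromosome 11 from 106515531 to 106611942. No region of either mark overlapped the window at the 5′ end of the record, a window that also holds a start of *Gm885* at 106612517. Of the 7 annotated starts of *Pecam1*, 5 lie between 106576260 and 106576708, at least 35.2 kb inside the record. In windows around these 5 starts, H3K4me3 covered 1001 bp in pregranulosa cells and 0 bp in the other populations, and H3K27me3 covered 0 bp in all 4.

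H3K4me3 regions inside *Pecam1* numbered 2 in XY progenitors, 4 in XX progenitors, 3 in Sertoli cells and 8 in pregranulosa cells. They covered 2.08%, 5.95%, 3.64% and 11.8% of the gene, highest in pregranulosa cells. All but 1 of these regions overlapped no exon of *Pecam1*, the exception being a Sertoli region of 1001 bp that overlapped a coding exon. The pregranulosa region from 106577007 to 106578007 was centred 799 bp from the annotated start at 106576708. A pregranulosa region of 2744 bp held a start of another gene, *U3*. A site centred 75.9 kb from the TSS was called in all 4 populations. The nearest H3K27me3 region was 135 kb, 137 kb, 271 kb and 136 kb from the TSS.

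*Cdh5* encodes VE-cadherin, the adhesion protein of endothelial adherens junctions. The gene (ENSMUSG00000031871.8) lies on the plus strand of chromosome 8 from 106625525 to 106668402 and has 1 annotated start. H3K4me3 covered 0 bp of its promoter window in both progenitor populations and in Sertoli cells, and 1001 bp in pregranulosa cells, where the region ran from 106625465 to 106626465 over the TSS. A width of 1001 bp is the smallest that an H3K4me3 call can have, and 30.9% of the pregranulosa H3K4me3 regions had it. The region was lost when the list was limited by width to 37849 regions, the length of the shortest H3K4me3 list.

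H3K4me3 within *Cdh5* covered 2.33% of the gene in XY progenitors, 2.33% in XX progenitors, 0% in Sertoli cells and 9.09% in pregranulosa cells. Pregranulosa cells therefore had the highest share and Sertoli cells had no region in the gene. A site at -9.62 kb from the TSS was called in all 4 populations. H3K27me3 came no closer to the TSS than 49.2 kb in any list.

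*Tek* encodes the angiopoietin receptor Tie2, and *Tie1* encodes a related receptor that acts with it. *Tek* (ENSMUSG00000006386.9) lies on chromosome 4 from 94405980 to 94541667 on the plus strand, and *Tie1* (ENSMUSG00000033191.6) on the same chromosome from 118143796 to 118162666 on the minus strand. Neither mark was called at the *Tek* promoter, and the nearest H3K27me3 region lay 1226 kb, 1225 kb, 452 kb and 451 kb away. H3K4me3 was called within *Tek* only as a region of 1001 bp in Sertoli cells and another in pregranulosa cells, which overlapped each other in the same intron span 13.4 kb from the TSS. The pregranulosa region, but not the Sertoli region, was lost when the lists were limited by width to 37849 regions. *Tek* thus had the most distant H3K27me3 of the 9 genes in all 4 populations.

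At *Tie1*, an H3K4me3 region lay 2304 bp from the TSS in XY progenitors and 2018 bp in XX progenitors, just outside the promoter window. The nearest H3K4me3 region was 12.2 kb away in Sertoli cells and 23.6 kb away in pregranulosa cells, so the site next to the window was called at E10.5 and not at E13.5. With windows of 5 kb on each side, H3K4me3 marked 4 of the 9 promoters in XY progenitors and 6 in XX progenitors, *Tie1* among both. It marked 3 in Sertoli cells and 4 in pregranulosa cells, *Tie1* in neither. The share of all promoters was not computed for that window. H3K27me3 covered 35.1% of *Tie1* in Sertoli cells, in a region of 6623 bp that overlapped a coding exon, and 0% in the other populations.

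*Emcn* encodes endomucin, a sialomucin on the surface of venous and capillary endothelium. The gene (ENSMUSG00000054690.10) lies on the plus strand of chromosome 3 from 137004031 to 137095149. H3K4me3 covered 1001 bp of its promoter window in XX progenitors and 0 bp in the other populations, again a call of the smallest width. This call was lost with the widest 75% of regions, but not with the list limited by width to 37849 regions. The region ran from 137003778 to 137004778 and overlapped a coding exon, and 24.9% of the XX progenitor H3K4me3 regions had that width. It was the only region of either mark within the gene or 20 kb of it. The nearest H3K27me3 region lay 281 kb, 279 kb, 434 kb and 434 kb from the TSS.

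*Ptprc* encodes CD45, a membrane phosphatase found on leukocytes and their precursors. The gene (ENSMUSG00000026395.8) lies on the minus strand of chromosome 1 from 139959438 to 140071882. Neither mark was called at its promoter in any list. H3K4me3 covered 0% of the gene in XY progenitors, 0.890% in XX progenitors, 0.890% in Sertoli cells and 1.58% in pregranulosa cells, all in 1 intronic site 38.8 kb from the TSS. The nearest H3K27me3 region was 202 kb, 204 kb, 206 kb and 331 kb from the TSS.

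Along the gene records, H3K4me3 was present in 6, 8, 7 and 7 of the 9 genes in XY progenitor, XX progenitor, Sertoli and pregranulosa cells. Among all protein-coding genes it was present in 68.7%, 70.1%, 69.4% and 70.8%. The median share of the gene covered was 2.33%, 2.33%, 3.64% and 2.45% over the 9 genes and 3.65%, 5.21%, 4.63% and 5.65% over all protein-coding genes. H3K27me3 was present in 3, 3, 4 and 2 of the 9 genes, beside 25.5%, 27.3%, 26.4% and 26.6% of all, with a median of 0% throughout. Presence in the record and the share covered both depend on gene length. The 9 records ran from 15330 bp at *Tal1* to 135688 bp at *Tek*, and their lengths were not compared with those of all genes. The share of the 9 genes with H3K4me3 inside the record lay closer to that of all protein-coding genes than did the share with H3K4me3 at the promoter.

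The 9 promoters differed in CpG content. In the 1001 bp centred on the TSS, the ratio of observed to expected CpG was 0.665 at *Kdr* and 0.804 at *Tal1*, above the median of 0.549 over 22336 promoters. The other 7 promoters lay below that median, at 0.330 for *Tie1*, 0.323 for *Ptprc*, 0.317 for *Tek*, 0.294 for *Pecam1*, 0.292 for *Emcn*, 0.244 for *Cdh5* and 0.176 for *Spi1*. The bivalent pair was therefore also the CpG-rich pair, taking as CpG-rich a ratio of at least 0.6 with a GC share of at least 50%, limits chosen after the data were seen. Among all CpG-rich promoters, 0.355% had neither mark in XY progenitors, 0.253% in XX progenitors, 0.304% in Sertoli cells and 0.263% in pregranulosa cells. Of the CpG-rich promoters, 27.9%, 29.5%, 24.6% and 26.5% were bivalent, and most of them had H3K4me3 alone (71.3%, 70.1%, 74.7% and 73.1%). Among the other promoters, 59.1%, 56.3%, 54.0% and 54.2% had neither mark, and 14.4%, 16.7%, 14.1% and 15.5% were bivalent.

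**Figure D3:**
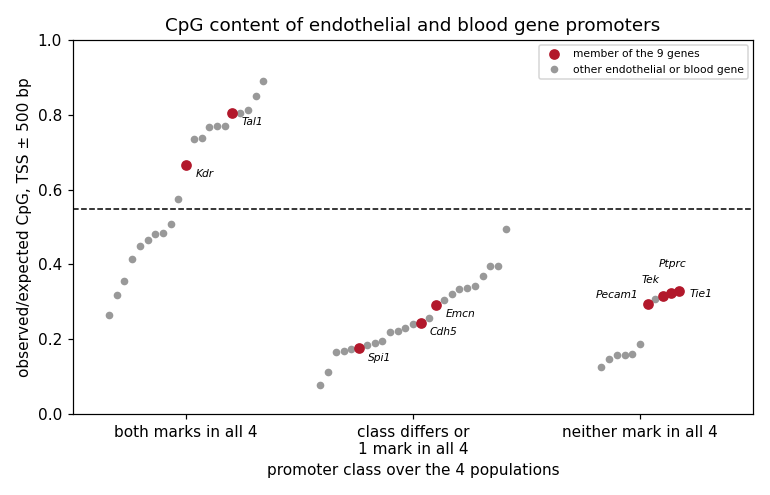
Ratio of observed to expected CpG in TSS ± 500 bp (y axis) for the 9 genes (red, named) and 48 other endothelial and blood genes (grey), grouped on the x axis by promoter class over the 4 populations, with the median of all protein-coding promoters as a dashed line. *Kdr* at 0.665 and *Tal1* at 0.804 lie above the line, and no gene with neither mark in all 4 populations does. The TSS is the 5′ end of each gene record, and other annotated starts are not shown.

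The 250 bases upstream of the TSS are shown for the bivalent promoters and for the endothelial promoter of *Emcn*, marked by H3K4me3 in 1 population, because they differ in CpG content. Each is read 5′ to 3′ on the strand of the gene from the mm9 genome, with capitals marking CpG dinucleotides. *Kdr* is at chr5:76374484-76374733 (minus strand, 16 CpG), *Tal1* at chr4:114728781-114729030 (plus strand, 6 CpG) and *Emcn* at chr3:137003781-137004030 (plus strand, 0 CpG).
Kdr: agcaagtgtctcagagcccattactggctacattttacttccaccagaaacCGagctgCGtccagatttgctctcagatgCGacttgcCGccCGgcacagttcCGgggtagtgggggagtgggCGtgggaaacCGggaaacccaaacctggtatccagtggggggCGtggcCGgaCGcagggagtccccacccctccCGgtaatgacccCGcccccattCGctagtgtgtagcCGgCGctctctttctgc
Tal1: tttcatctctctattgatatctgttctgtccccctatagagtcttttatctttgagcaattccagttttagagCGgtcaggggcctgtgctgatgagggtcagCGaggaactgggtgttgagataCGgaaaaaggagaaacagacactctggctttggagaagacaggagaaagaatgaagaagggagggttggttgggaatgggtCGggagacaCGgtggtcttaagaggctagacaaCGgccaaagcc
Emcn: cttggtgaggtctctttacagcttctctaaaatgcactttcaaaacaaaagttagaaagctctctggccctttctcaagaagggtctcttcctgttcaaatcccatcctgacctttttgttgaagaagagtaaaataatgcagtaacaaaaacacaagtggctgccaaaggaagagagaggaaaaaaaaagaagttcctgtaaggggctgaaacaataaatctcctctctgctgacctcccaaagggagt
*Kdr* had the most CpG in this stretch, and at *Tal1* it held 6 of the 64 counted in the 1001 bp around the TSS.

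Motifs of factors that act in these lineages were searched on both strands, each motif by itself. The stretch was the 300 bases from 250 upstream to 50 downstream of the TSS of each record. The inner starts of *Pecam1* and *Spi1* were not searched. The GATA motif AGATAA occurred at 2 of the 9 promoters, *Tek* and *Tal1*, and at 10.4% of all 22334 promoters. The ETS core GGAAG occurred at 7 of the 9, all but *Tek* and *Tal1*, and at 71.6% of all promoters. The E-box CANNTG occurred at 8 of the 9, all but *Spi1*, and at 69.6% of all promoters. The ETS and E-box motifs occurred at most promoters of either set, no difference was tested, and a match is a description of the letters alone.

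Among 48 other genes of the same lineages, 22 endothelial and 26 blood genes, bivalency was counted at a larger share than among the 9 genes, a difference that was not tested. Bivalent promoters numbered 22 of 48 in XY progenitors (45.8%), 23 in XX progenitors (47.9%), 22 in Sertoli cells (45.8%) and 23 in pregranulosa cells (47.9%). All 4 shares lay inside the interval of the 2 of 9 (2.81–60.0), and 20.4%, 22.4%, 18.7% and 20.4% of all promoters were bivalent. In all 4 populations, 19 were bivalent and 7 had neither mark. Of the 19, 9 were CpG-rich, and their median ratio of observed to expected CpG was 0.574, against 0.158 for the 7 with neither mark. Promoters with H3K27me3 alone numbered 5, 4, 12 and 5 of 48, beside 2.65%, 2.42%, 4.80% and 3.26% of all promoters. Both were highest in Sertoli cells.

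The promoters with H3K27me3 alone in Sertoli cells and neither mark elsewhere were those of *Vwf* and *Egfl7*, secreted products of endothelial cells, and of *Cx3cr1*, *Itgam* and *Laptm5*, genes of macrophages and other leukocytes. Other genes of these cells differed from this, with H3K27me3 alone at *Emr1* in pregranulosa cells only, at *Tyrobp* in XY progenitors and Sertoli cells, and H3K4me3 alone at *Fcer1g* in Sertoli cells. *Lmo2*, a partner of TAL1, gained H3K27me3 alone in Sertoli cells and both marks in pregranulosa cells, and *Runx1* had H3K27me3 alone in both at the TSS of its record. *Klf1*, an erythroid factor, was bivalent at E10.5 and had H3K4me3 alone at E13.5 in both sexes. *Angpt2*, a ligand of the *Tek* receptor, changed the other way, from H3K4me3 alone at E10.5 to both marks at E13.5. *Plvap*, a protein of endothelial fenestrae, was bivalent in XY progenitors and had H3K27me3 alone elsewhere. H3K27me3 was also called in all 4 populations at the blood genes *Lyl1*, *Gfi1b* and *Coro1a*, with H3K4me3 beside it in XX progenitors and pregranulosa cells at *Lyl1*, in XX progenitors and Sertoli cells at *Gfi1b* and in pregranulosa cells at *Coro1a*. *Cebpe*, a myeloid factor, had H3K4me3 alone in XY progenitors and Sertoli cells, H3K27me3 alone in XX progenitors and neither mark in pregranulosa cells. *Itga2b* lacked H3K27me3 in pregranulosa cells alone, and its H3K4me3 overlap was only 383, 332, 52 and 301 bp of the window. Other classes named here also rest on short overlaps, of 216 bp for H3K27me3 at *Egfl7* and 320 bp at *Tyrobp* in Sertoli cells, and of 339 bp for H3K4me3 at *Lmo2* and 39 bp at *Coro1a* in pregranulosa cells. *Eng*, a co-receptor of TGF-β family ligands in endothelium, had H3K4me3 alone in all populations but XY progenitors. H3K27me3 in Sertoli cells was called from the most tags of the H3K27me3 lists with a stated depth, and the part of depth in these counts was not tested.

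The other gene most like each of the 9 was taken as the one with the smallest mean absolute difference of the covered share of the promoter window over the 8 lists. It was *Flt1* for *Kdr* (4.94 percentage points), *Gata2* for *Tal1* (4.69), *Gata1* for *Cdh5* (0.181), *Mmrn2* for *Emcn* (1.08) and *Vwf* for *Spi1* (5.74). *Pecam1*, *Tek*, *Tie1* and *Ptprc* were equal to each of 7 other genes, *Aif1* the first of them by symbol, since all were at 0 in the 8 lists.

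The sorted populations were also described by other lists. All 12 housekeeping promoters had H3K4me3 in every population, and H3K27me3 was called beside it at 1, 3, 0 and 1 of them. These were *B2m* in XY progenitors, *Actb*, *Hprt* and *Pgk1* in XX progenitors and *Pgk1* in pregranulosa cells. *Hprt* and *Pgk1* lie on the X chromosome, and H3K27me3 covered 4001 bp of their windows where called and 0 bp in XY progenitors and Sertoli cells. Supporting cell genes had H3K4me3 at 13 of 13 promoters in every population, with H3K27me3 beside it at 12, 12, 6 and 6. *Wt1*, *Gata4* and *Nr5a1* went from both marks at E10.5 to H3K4me3 alone in Sertoli and pregranulosa cells. H3K27me3 called at E10.5 was absent at E13.5 in Sertoli cells alone at *Sox9*, *Dhh* and *Dmrt1*. In pregranulosa cells alone, it was absent at *Rspo1*, *Lhx9*, *Emx2* and *Wnt4*. The equal counts at E13.5 therefore stand for genes that differ in part, with 2 of the 13 bivalent in all 4 populations. *Amh* had H3K27me3 in pregranulosa cells alone. The 10 germ cell promoters had both marks at 1, 2, 3 and 2, H3K4me3 alone at 1, 2, 2 and 3 and neither mark at 5, 4, 4 and 4, and the 7 proneural promoters were bivalent at 6, 7, 7 and 7. Of the 10 germ cell genes, 5 kept the same class in all 4 populations. *Dazl* had H3K4me3 alone, *Ddx4* was 1 of 3 with neither mark, and 1 was bivalent. The class of the other 5 differed between populations. H3K4me3 alone was called at *Stra8* in pregranulosa cells and at *Sycp3* in XX progenitors and Sertoli cells. H3K27me3 with or without H3K4me3 was called at *Pou5f1* and *Nanog* in all 4 populations. The same held for *Dppa3* in all but pregranulosa cells, where it had H3K4me3 alone. Cells of other lineages within a sorted population can add H3K4me3 regions at their own genes, and their part in the H3K4me3 called at *Pecam1*, *Cdh5* and *Emcn* was not tested.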

How the data were processed

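The authors sorted supporting cells from pooled gonads and performed ChIP-seq for H3, H3K4me3 and H3K27me3 in 2 replicates per population. The submitters' processing notes name Trim Galore, Bowtie, SAMtools and HOMER, with mm9 as the build, and versions are not given in the sources used here. Per the file headers of 6 of the 8 lists, HOMER findPeaks was run in histone style against H3 on joined replicates, with a peak size of 1000 bp for H3K4me3 and 5000 bp for H3K27me3, at least 4-fold enrichment and a Poisson p of 0.0001 required against both input and surroundings, and a Poisson threshold of 0.001 for calling. The deposited score is 1 in every row of those lists and was not used. The other deposited values are peak positions, which were made 1-based.

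Overlapping peaks were joined into regions. Promoters were TSS ± 2 kb on GENCODE M1, marked by at least 1 bp, and genes with the same window were counted once. Shares have exact binomial intervals, which cover counting error only. No test was made, because each list pools both replicates. Alternatives changed the overlap, the window, the TSS used, the width of regions kept and their joining. The members and lists were chosen with earlier results of these data known. Named are the 9 genes, at most 4 genes per list and class pattern among those whose class differs between populations (by covered bases, then symbol), and the most alike gene of each member. *Foxl2* and *Fst* were named as supporting cell markers, *Ddx4* and *Dazl* as germ cell markers, and neighbours of the 9 genes after seeing the values. RefSeq promoter sequences were found on mm9 for 6 of the 9 genes by exact match. Overlap functions were checked on simulated intervals, with 100% of 2000 queries equal to a base-by-base count. Python 3.11.15, NumPy 2.4.6, SciPy 1.17.1 and matplotlib 3.10.9 were used.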

Additional observations from a re-analysis of the deposited data

Results flagged for a closer look

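The following values moved in opposite directions in the sexes between E10.5 and E13.5, and each value is the change from XY progenitor to Sertoli cells minus the change from XX progenitor to pregranulosa cells, in percentage points. With 1 pooled list per population, the difference was not tested in any of them. For H3K4me3 over the promoter window of *Kdr* it was -27.7, since the share covered was lower in Sertoli cells and higher in pregranulosa cells than in the progenitors of the same sex. With TSS ± 1 kb the shares were 91.0% in XY progenitors and 100% in the other populations. The share was then higher in Sertoli cells than in XY progenitors, so the opposite directions were lost. XX progenitors were already at 100%, so a rise in XX cells could not show in that window. For H3K4me3 along the *Kdr* gene it was -8.60, with the same directions, but without the first 2 kb of the gene the share was higher at E13.5 in both sexes (1.79% and 2.29% in XY, 5.19% and 11.5% in XX cells). Along the *Cdh5* gene it was -9.09, again lower in Sertoli and higher in pregranulosa cells. The XY change rests on 1 progenitor region of 1001 bp, the smallest width, which 48.2% of the regions of that list have, and the XX progenitor share of 2.33% was 0 with reduced lists. For H3K27me3 over the promoter window of *Spi1* it was 61.5, since the share was higher in Sertoli cells and lower in pregranulosa cells. The lower share rests on 298 bp in XX progenitors, which were not counted with TSS ± 1 kb, where both XX populations were at 0.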

How the results depend on the processing

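No paired analysis was possible because the lists used here pool both replicates, and for the same reason no replicate could be left out. Of 144 counts over the 9 genes recomputed under the alternatives, 139 stayed within 1.5 times the value reported and 5 did not. A change between 2 and 3 genes is within 1.5 times, so the loss of 1 gene from 3 did not register. The 139 counts therefore do not show that the same genes stayed marked. With windows of 5 kb on each side, H3K4me3 marked 4 promoters in XY progenitors and 6 in XX progenitors, where 3 had neither mark. The counts of 3 in Sertoli cells and 4 in pregranulosa cells stayed within 1.5 times. No share of all promoters was computed for windows of 5 kb, so these counts have no background beside them. With the TSS base required inside a region, H3K4me3 marked 1 promoter in Sertoli cells and 1 was bivalent there. That case apart, *Kdr* and *Tal1* were bivalent in all 4 populations under every alternative, and windows of 5 kb on each side added *Spi1* in all but pregranulosa cells. *Cdh5* lost H3K4me3 in pregranulosa cells with the widest 75% of regions and with reduced lists, and *Emcn* lost it in XX progenitors with the widest 75%. Regions of equal width were ranked by chromosome name and position, so which regions of the smallest width remain is arbitrary. *Spi1* lost H3K27me3 in XX progenitors with 500 bp of overlap, TSS ± 1 kb, the TSS base or the widest 75%. With any annotated start, *Tie1* gained H3K4me3 in both progenitor populations and *Pecam1* in pregranulosa cells. RefSeq starts, chosen after seeing the data, added *Tie1* in XX progenitors. Of 80 shares of all promoters 67 moved beyond their interval, as did 14 of 40 shares of the window and 29 of 80 shares of the gene, where the interval took each base as a separate draw and shares of 0 were not recomputed. The cause was not tested.

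Over all genes of the annotation, the shares of promoters became 46.8%, 48.8%, 47.8% and 49.2% for H3K4me3, 17.8%, 20.6%, 19.1% and 20.0% for H3K27me3, 14.8%, 16.5%, 13.8% and 15.2% for both marks and 50.3%, 47.1%, 46.9% and 46.0% for neither mark. Over the autosomes, the shares of promoters became 64.8%, 66.7%, 65.5% and 67.0% for H3K4me3, 23.6%, 22.8%, 24.2% and 22.0% for H3K27me3, 21.4% and 19.6% (XX progenitor and pregranulosa) for both marks and 32.4% and 29.5% (XY progenitor and Sertoli) for neither mark. With at least 500 bp of overlap, the shares of promoters became 63.5% and 65.6% (XY progenitor and pregranulosa) for H3K4me3, 22.5% and 22.9% (XY progenitor and Sertoli) for H3K27me3 and 19.7%, 18.0% and 19.8% (XY progenitor, Sertoli and pregranulosa) for both marks. With TSS ± 1 kb, the shares of promoters became 62.8%, 64.8%, 63.5% and 64.9% for H3K4me3, 21.9%, 23.9%, 22.2% and 22.7% for H3K27me3, 19.0%, 21.4%, 17.2% and 19.2% for both marks and 34.3%, 32.7%, 31.5% and 31.6% for neither mark. With the widest 75% of regions, the shares of promoters became 61.7%, 64.5%, 62.9% and 64.7% for H3K4me3, 19.4%, 20.3%, 20.3% and 20.3% for H3K27me3, 16.3%, 17.9%, 15.3% and 17.1% for both marks and 35.2%, 33.1%, 32.1% and 32.1% for neither mark.

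Of the promoter window of TSS ± 1 kb, the share covered was 50.0% (pregranulosa) for *Cdh5* H3K4me3, 91.0% (XY progenitor), 100% (XX progenitor), 100% (Sertoli) and 100% (pregranulosa) for *Kdr* H3K4me3, 50.0% (XX progenitor) for *Emcn* H3K4me3, 63.8% (XY progenitor), 100% (XX progenitor), 49.5% (Sertoli) and 54.4% (pregranulosa) for *Tal1* H3K4me3. It was 0% (XX progenitor) and 58.2% (Sertoli) for *Spi1* H3K27me3. With lists reduced to the length of the shortest of the mark, the share of the promoter window was 0% (pregranulosa) for *Cdh5* H3K4me3, 80.0% (pregranulosa) for *Kdr* H3K4me3. Without the first 2 kb of the gene, the share of the gene was 12.0% (pregranulosa) for *Pecam1* H3K4me3, 7.23% (pregranulosa) for *Cdh5* H3K4me3, 8.26% (XY progenitor), 7.49% (XX progenitor) and 5.93% (Sertoli) for *Tie1* H3K4me3, 39.3% (Sertoli) for *Tie1* H3K27me3. It was 1.79% (XY progenitor), 5.19% (XX progenitor), 2.29% (Sertoli) and 11.5% (pregranulosa) for *Kdr* H3K4me3, 8.21% (XY progenitor), 10.7% (XX progenitor), 43.8% (Sertoli) and 25.9% (pregranulosa) for *Kdr* H3K27me3, 0% (XX progenitor) for *Emcn* H3K4me3, 17.1% (XY progenitor), 28.8% (XX progenitor), 13.7% (Sertoli) and 15.9% (pregranulosa) for *Tal1* H3K4me3. It was 5.79% (Sertoli) for *Spi1* H3K4me3, 30.2% (XY progenitor), 6.40% (XX progenitor) and 25.1% (Sertoli) for *Spi1* H3K27me3. With the reduced lists, the share of the gene was 0% (XX progenitor) and 6.89% (pregranulosa) for *Cdh5* H3K4me3, 0% (pregranulosa) for *Tek* H3K4me3, 6.29% (XX progenitor) for *Kdr* H3K4me3, 44.8% (Sertoli) and 18.1% (pregranulosa) for *Kdr* H3K27me3.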
